A study of Mus musculus with 6 samples.

Results

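The respiratory chain of the testis was examined in its mRNA, with the subunits that the mitochondrial genome encodes set against those that come from the nucleus. Members were chosen by symbol: transcripts were matched to the mouse annotation (GENCODE, mm10), their FPKM values were summed per gene, and protein-coding genes were kept whose symbols begin with mt-, Nduf, Sdha to Sdhd, Uqcr, Cox4 to Cox8 or Atp5, together with Cycs, Cyct and Cyc1. FPKM values are fragment numbers corrected for the length of each transcript and for the total of mapped fragments in the library. Of 113 genes that fit this rule in the annotation, 110 were among the 14000 genes of the deposited table. Cox4i2, Cox6a2 and Cox8b, isoforms known from lung or muscle, were not listed. The 110 members comprised 13 mitochondrially encoded mRNAs and 97 nuclear genes, and the nuclear genes comprised 82 subunits and cytochromes c, 12 assembly factors and 3 accessory genes.

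Testis libraries of wild-type male C57BL/6N mice were compared, 3 labelled H+H+Cd and 3 labelled H+Cd, which were read as the study's HFD2D and HFD1D groups. H+H+Cd males were F2 offspring with 2 successive paternal generations on a high-fat diet, and H+Cd males were F1 offspring with 1 such generation. The labels name a high-fat diet together with CdCl2 for every library and do not say which animals ate it. By the study's methods the diet was given to the fathers from week 5 to week 15 of age, all dams were fed normally, and all males of both groups drank water with cadmium chloride (CdCl2) for 10 weeks and were killed at week 15. Males without cadmium or without a high-fat-fed father were not analysed here, and generation of birth and paternal diet history cannot be told apart. The labels do not say that each library is a separate mouse, so that p-values measure only the spread between these libraries. In whole testis, fewer cells of a type and less RNA per cell cannot be told apart.

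Mitochondria make most of the ATP of a cell by passing electrons from NADH and succinate along complexes I to IV to oxygen and by using the resulting proton gradient in complex V, the ATP synthase. The small circular mitochondrial genome is inherited from the mother and is transcribed inside the organelle as long RNAs that are cut into single mRNAs, whereas all subunits of complex II, cytochrome c and most subunits of the other complexes are imported from the cytosol. Male germ cells are known to exchange somatic forms of several subunits for testis forms during spermatogenesis, among them cytochrome c.

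Library totals were alike, with a summed FPKM of 387631 to 392598 in H+H+Cd libraries and 382815 to 397147 in H+Cd libraries. The labelled tissue was borne out by its markers: 7 genes of elongating spermatids, protamines included, summed to 15091, 14123 and 14344 FPKM in H+H+Cd testes, against 12349, 17452 and 17640 FPKM in H+Cd testes, where replicate 1 was the lowest library of all. H+H+Cd replicate 1 stood apart in genes of other tissues, with 94.1 FPKM over 2 epididymal genes and 150.1 FPKM over 6 placental genes, against at most 0.293 and 20.2 FPKM in any other library. H+Cd replicate 2 stood apart in 7 Leydig cell genes, which summed to 249 FPKM there and to 464 to 567 FPKM in the other libraries. For 5 red blood cell genes H+H+Cd replicate 1 and H+Cd replicate 3 stood apart, with sums of 312, 113 and 74.6 FPKM in H+H+Cd testes, against 84.9, 47.8 and 374 FPKM in H+Cd testes. Genes with near-identical copies, to which nuclear copies of mitochondrial DNA and processed pseudogenes of Nduf, Cox and Atp5 genes belong, carry an added uncertainty, because how shared reads were divided is not given in the sources used here.

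None of the 110 members passed the test across all genes (limma on log2(FPKM + 1), Benjamini-Hochberg adjusted p below 0.05), in which 0.00726% of 13769 genes tested were called, and the smallest adjusted p of a member was 0.223. The direction of the means nevertheless split by genome. Of the 13 mitochondrial mRNAs, 12 had the higher mean in H+H+Cd testes and 1 the lower, with a median log2 fold change of 0.34. Mitochondrial mRNAs are cut from long RNAs and share the same libraries, so that they are not independent observations. Of the 82 nuclear subunits and cytochromes c, 24 had the higher and 58 the lower mean, with a median of -0.11. Over all genes tested the median was 0.00, 49.8% had the lower mean and 50.2% the higher. Among 3618 genes at a mean of at least 20 FPKM the share with the lower mean was 53.3%, against 75% of 68 nuclear subunits at that level. Without H+H+Cd replicate 3 the nuclear median was -0.07.

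An unadjusted limma p below 0.05 was reached by 17 members (15.5%) with the higher and 21 (19.1%) with the lower mean in H+H+Cd testes. The shares of all genes were 5.31% and 6.59%. Of the 17, 10 were mitochondrial mRNAs and 7 were among the 97 nuclear genes, while all 21 were nuclear. All 3 H+H+Cd libraries lay above all 3 H+Cd libraries for 19 members and below them for 25, beside 8.34% and 11.0% of all genes. Of the 19, 10 were mitochondrial and 9 nuclear, and all 25 were nuclear. On the higher side the nuclear genes alone were thus near the share of all genes by both counts. With the thresholds of the study's methods, an F-test p below 0.05 and a fold above 1.2, applied here without adjustment, 6 members were higher and 11 lower, beside 2.3% and 2.51% of all genes (4.82% in either direction). These counts depended on single libraries. With 5 libraries left, an unadjusted limma p below 0.05 was reached on the higher side by 6 members without H+H+Cd replicate 1 (5.45% of members, 3.48% of all genes), by 7 without H+H+Cd replicate 3 (6.36% and 4.69%) and by 10 without H+Cd replicate 3 (9.09% and 3.54%). On the lower side 12 reached it without H+Cd replicate 2 (10.9% and 4.79%). At the study's thresholds 0 members were higher without H+H+Cd replicate 1 (1.47% of all genes), 2 without H+H+Cd replicate 2 (1.82% of members, 2.01% of all genes), 3 without H+H+Cd replicate 3 (2.73% and 2.24%) and 3 without H+Cd replicate 3 (2.73% and 1.58%). The count of members that were lower was 7 without H+H+Cd replicate 3 (6.36% of members, 1.90% of all genes), 6 without H+Cd replicate 2 (5.45% and 2.07%) and 5 without H+Cd replicate 3 (4.55% and 1.62%). At the study's thresholds the members' share on the higher side was thus below or near that of all genes without H+H+Cd replicate 1, 2 or 3. An unadjusted limma p below 0.05 was still reached on that side by 17 members without H+H+Cd replicate 2 (15.5% of members, 4.39% of all genes). Leaving out H+Cd replicate 1 gave 9 members higher (8.18% and 4.45%) and 16 lower (14.5% and 3.86%) at the study's thresholds.

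**Figure D1:**
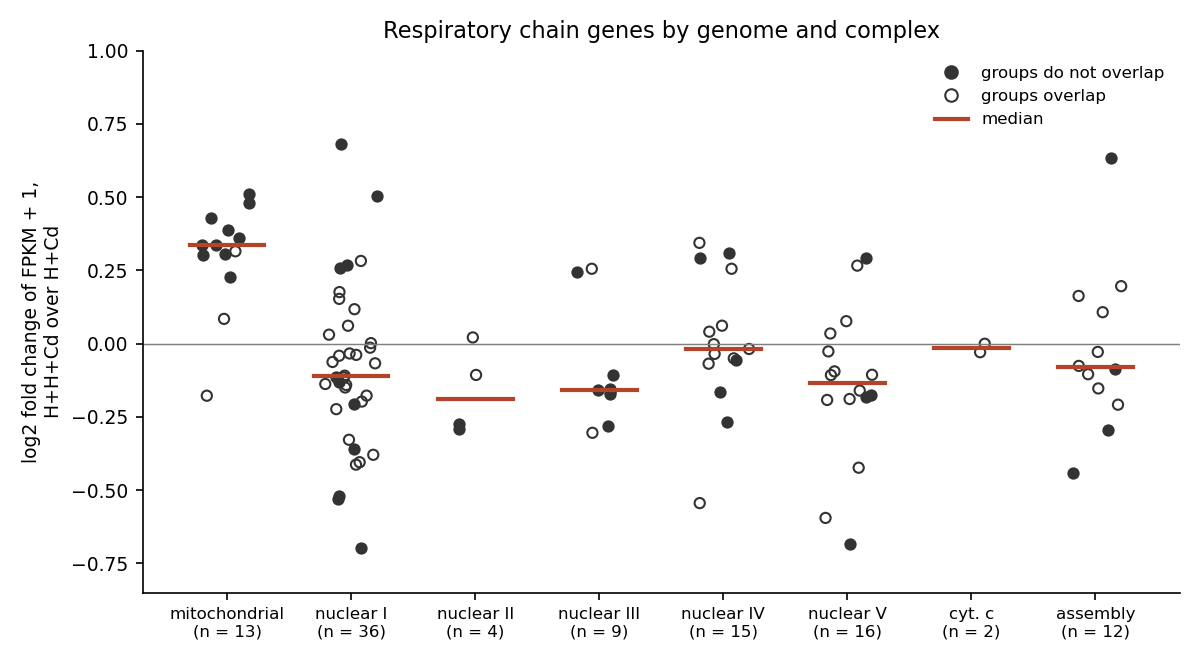
Log2 fold change of FPKM + 1 (H+H+Cd over H+Cd, vertical axis) of 107 members by genome and complex, 1 point per gene, filled where the 3 H+H+Cd and 3 H+Cd libraries do not overlap, with the median of each column as a bar. The mitochondrial column has its median at 0.34, while the medians of the nuclear complexes lie between -0.19 and -0.02.

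As to their levels, mitochondrial mRNAs were among the most abundant transcripts of the testis. mt-Co1, the catalytic core of complex IV, averaged 2630 FPKM over the 6 libraries and ranked number 5 of all genes, and mt-Nd6, the least abundant, averaged 256 FPKM and ranked number 195. Cox8c, the testis form of a small complex IV subunit, was the highest nuclear member at 436 FPKM. It was followed by Atp5h (230 FPKM), Ndufa12 (183 FPKM), Cox7b2 (181 FPKM) and Cyct (160 FPKM), 2 of which are testis forms as well. The lowest member was the complex I assembly factor Ndufaf6 at 0.88 FPKM.

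The mitochondrial mRNAs lie close together and share bases, which bears on how their reads can be assigned. The end of mt-Atp8 overlaps the start of mt-Atp6 by 43 bases, and the end of mt-Nd4l overlaps the start of mt-Nd4 by 7 bases on the same strand. mt-Nd5 and mt-Nd6 run towards each other on opposite strands and share 14 bases at their 3′ ends. The stretches are shown 5′ to 3′ on the strand of the mRNA (mm10, chromosome M), with the shared bases in capitals.
mt-Atp8 end and mt-Atp6 start, 7917 to 7979: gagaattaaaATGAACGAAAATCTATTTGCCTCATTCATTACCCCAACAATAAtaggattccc
mt-Nd4l end and mt-Nd4 start, 10157 to 10183: acctactacaATGCTAAaaattattct
mt-Nd5 3′ end, 13536 to 13565: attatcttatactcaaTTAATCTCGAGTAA
mt-Nd6 3′ end, 13552 to 13581: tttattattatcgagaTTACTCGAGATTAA

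Complex I takes 7 subunits from the mitochondrial genome, all of them in its proton-pumping membrane arm. mt-Nd5, the largest of them, had 746, 740.0 and 900.0 FPKM in H+H+Cd testes, against 677, 583 and 434 FPKM in H+Cd testes. The groups did not overlap, H+Cd replicate 3 was lowest and H+H+Cd replicate 3 highest, and the log2 fold change was 0.51 ± 0.17 (SE, limma adjusted p = 0.390). mt-Nd4l had 566, 539 and 701 FPKM in H+H+Cd testes, against 514, 457 and 335 FPKM in H+Cd testes, again with H+Cd replicate 3 at the bottom, and the log2 fold change was 0.48 ± 0.18 (SE, limma adjusted p = 0.396). Its neighbour mt-Nd4 had 1118, 1060.2 and 1312 FPKM in H+H+Cd testes, against 991, 952 and 733 FPKM in H+Cd testes, also without overlap (log2 fold change 0.39 ± 0.14, limma adjusted p = 0.390). The same order of groups held for mt-Nd2, with 1301, 1188 and 1473 FPKM in H+H+Cd testes, against 1148, 1102 and 849 FPKM in H+Cd testes (log2 fold change 0.36 ± 0.14, limma adjusted p = 0.399). mt-Nd1, at the hinge to the matrix arm, had 2070.3, 1972 and 2237 FPKM in H+H+Cd testes, against 1794, 1917 and 1649 FPKM in H+Cd testes (log2 fold change 0.23 ± 0.08, limma adjusted p = 0.390). For mt-Nd3 the groups were barely apart, with 365, 325 and 362 FPKM in H+H+Cd testes, against 286, 325 and 229.9 FPKM in H+Cd testes (log2 fold change 0.34 ± 0.13, limma adjusted p = 0.402).

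mt-Nd6 was the exception. It is the single mRNA read from the other strand, the light strand in the usual naming, and had 229.8, 255 and 230.0 FPKM in H+H+Cd testes, against 209, 286 and 328 FPKM in H+Cd testes. Here the groups overlapped, H+Cd replicate 1 was the lowest and H+Cd replicate 3 the highest library, and the log2 fold change was -0.18 ± 0.16 (SE, limma adjusted p = 0.677). The difference was -0.36 without H+Cd replicate 1 and -0.04 without H+Cd replicate 3. The level of mt-Nd6 came to 1.40%, 1.64% and 1.27% of the summed FPKM of the other 12 mitochondrial mRNAs in H+H+Cd testes, against 1.44%, 1.98% and 2.82% in H+Cd testes. H+Cd replicate 3 thus had the lowest level of 11 of the 13 mitochondrial mRNAs and the highest level of mt-Nd6. The libraries were made from poly(A)-selected RNA, and whether selection caught mt-Nd6 and the other 12 mRNAs alike was not tested.

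Complexes III, IV and V take 1, 3 and 2 mitochondrial subunits. mt-Cytb, the cytochrome b of complex III, was the mitochondrial mRNA of smallest p and the single one past the study's thresholds. It had 1553, 1462 and 1758 FPKM in H+H+Cd testes, against 1325, 1226 and 1005 FPKM in H+Cd testes, without overlap, and the log2 fold change was 0.43 ± 0.12 (SE, limma adjusted p = 0.358). The core subunit mt-Co1 had 2821, 2697 and 3190.2 FPKM in H+H+Cd testes, against 2508, 2505 and 2056 FPKM in H+Cd testes (log2 fold change 0.30 ± 0.10, limma adjusted p = 0.390). mt-Co3 had 915, 860.3 and 965 FPKM in H+H+Cd testes, against 831, 743 and 609 FPKM in H+Cd testes (log2 fold change 0.34 ± 0.12, limma adjusted p = 0.390), and these groups did not overlap either. mt-Co2, which receives electrons from cytochrome c, stood closest to no difference among the mRNAs of that strand, since it had 1741, 1713 and 1777 FPKM in H+H+Cd testes, against 1510.0, 1805 and 1630.1 FPKM in H+Cd testes, with H+Cd replicate 2 the highest library of all, and the log2 fold change was 0.08 ± 0.07 (SE, limma adjusted p = 0.659). mt-Atp6, the proton channel of complex V, had 1778, 1674 and 1878 FPKM in H+H+Cd testes, against 1569, 1545 and 1215 FPKM in H+Cd testes (log2 fold change 0.31 ± 0.11, limma adjusted p = 0.390). The overlapping mt-Atp8 had 1434, 1316 and 1566 FPKM in H+H+Cd testes, against 1348, 1297 and 877 FPKM in H+Cd testes, where H+Cd replicate 1 lay above H+H+Cd replicate 2 (log2 fold change 0.32 ± 0.17, limma adjusted p = 0.509).

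**Figure D2:**
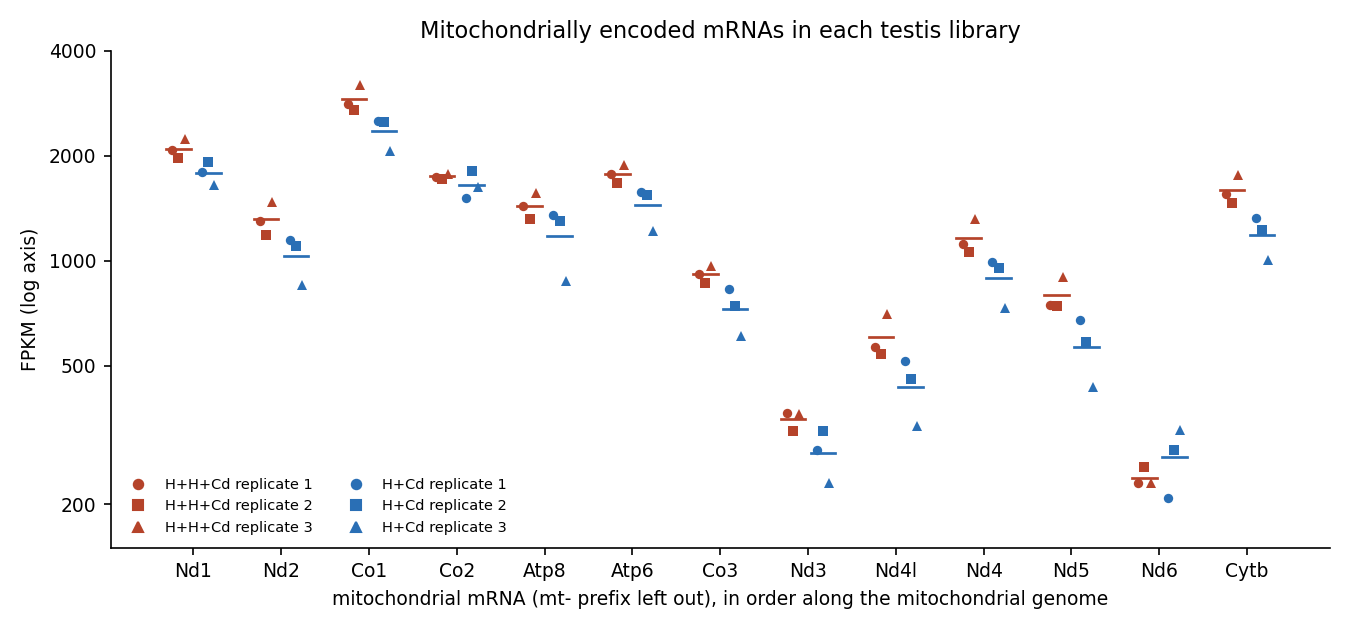
FPKM (log axis) of the 13 mitochondrially encoded mRNAs in genome order in 3 H+H+Cd libraries (red, left) and 3 H+Cd libraries (blue, right), 1 point per library with the group mean as a bar. The H+H+Cd mean is higher for 12 of them and lower for mt-Nd6.

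Single libraries weighed on these values. H+H+Cd replicate 3 had the highest level of 10 of the 13 mitochondrial mRNAs, and H+Cd replicate 3 the lowest of 11. H+Cd replicate 3 was also the library with the largest red blood cell sum (374 FPKM), whose part in these values was not tested. Without it the median log2 fold change of the 13 was 0.21, and without H+Cd replicate 1 it was 0.43. With any 1 of the 6 libraries left out, 12 of the 13 had the higher mean in H+H+Cd testes. The coefficient of variation between libraries of a group had a median over the 13 mRNAs of 8.66% in H+H+Cd testes and 15.6% in H+Cd testes, while for the 82 nuclear genes it was 7.68% in H+H+Cd testes and 8.503% in H+Cd testes.

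The balance between the genomes was then taken within each library, where a common scale factor cancels. The 13 mitochondrial mRNAs summed to 16638, 15803 and 18349 FPKM in H+H+Cd testes, against 14710.3, 14743 and 11947 FPKM in H+Cd testes. The 82 nuclear subunits and cytochromes c summed to 5176, 5024 and 4989 FPKM in H+H+Cd testes, against 5254, 5725 and 5879 FPKM in H+Cd testes. Both sums were apart between groups, in opposite directions. A sum weighs abundant genes most, and Cox8c alone averaged 350 FPKM in H+H+Cd testes and 523 FPKM in H+Cd testes. The median log2 deviation of the 82 genes from their 6-library means weighs every gene alike. It was -0.02, -0.05 and -0.05 in H+H+Cd testes, against 0.02, 0.06 and 0.06 in H+Cd testes. The mitochondrial sum was 3.21, 3.15 and 3.68 times the nuclear sum in H+H+Cd testes, a mean of 3.35 ± 0.289, and 2.80, 2.58 and 2.03 times in H+Cd testes, a mean of 2.47 ± 0.395 (SD, n = 3 each).

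The order was the same in each complex that draws on both genomes. For complex I the ratio was 4.05, 3.74 and 4.64 in H+H+Cd testes, against 3.47, 3.29 and 2.57 in H+Cd testes. For complex III it was 2.44, 2.31 and 2.79 in H+H+Cd testes, against 2.03, 1.65 and 1.296 in H+Cd testes. Complex IV had 3.64, 3.67 and 4.12 in H+H+Cd testes, against 3.19, 3.02 and 2.45 in H+Cd testes. Its nuclear sum averaged 1462 FPKM in H+H+Cd testes and 1649 FPKM in H+Cd testes, of which Cox8c alone gave 350 and 523 FPKM. In complex V the ratio was 2.84, 2.96 and 3.26 in H+H+Cd testes, against 2.54, 2.26 and 1.69 in H+Cd testes. All 4 ratios were without overlap, with H+Cd replicate 3 lowest each time. The subunits of complex II, which is wholly nuclear, summed to 134, 136 and 129 FPKM in H+H+Cd testes, against 145, 143 and 149 FPKM in H+Cd testes.

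**Figure D3:**
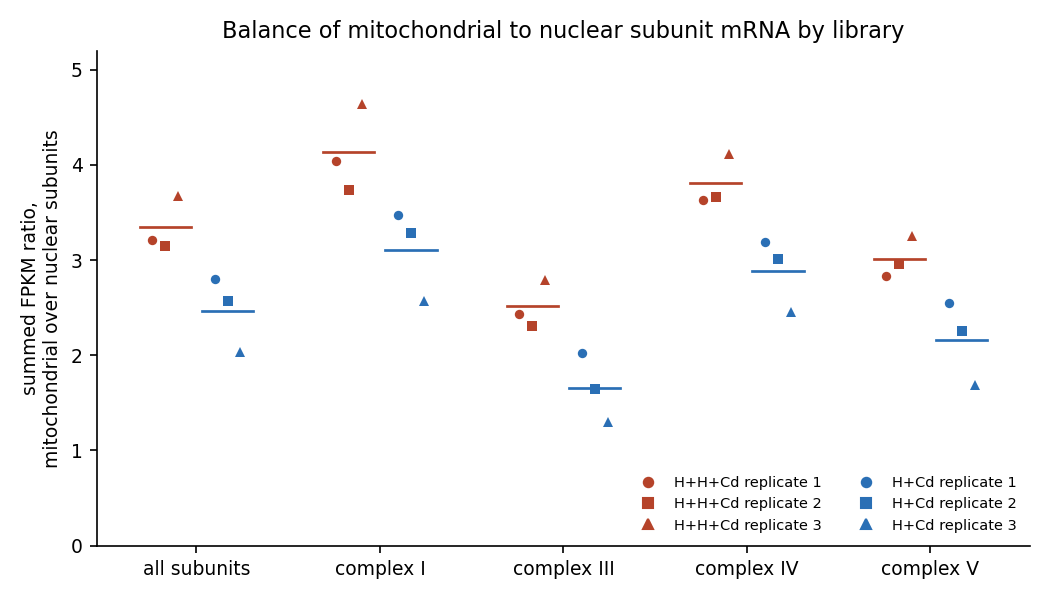
Summed FPKM of mitochondrial subunits divided by summed FPKM of nuclear subunits, over all subunits and by complex, in 3 H+H+Cd libraries (red, left) and 3 H+Cd libraries (blue, right), with group means as bars. Over all subunits the H+H+Cd libraries lie at 3.15 to 3.68 and the H+Cd libraries at 2.03 to 2.80.

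Markers of single cell types also differed in their means between the groups. Of 7 macrophage genes listed, 6 had the higher mean in H+H+Cd testes, and they summed to 28.5 to 37.0 FPKM there against 23.9 to 29.6 FPKM in H+Cd testes. All 6 peritubular myoid genes had the higher mean (179 to 216 FPKM summed in H+H+Cd testes, 148 to 203 FPKM in H+Cd testes), as had 4 of 5 endothelial genes (4.402 to 4.73 FPKM in H+H+Cd testes, 3.76 to 4.09 FPKM in H+Cd testes). Of 6 spermatogonial genes 5 had the lower mean (85.8 to 88.9 FPKM in H+H+Cd testes, 93.1 to 100.2 FPKM in H+Cd testes), and so had all 7 elongating spermatid genes. Of the other lists, 5 of 7 Leydig, 4 of 5 red blood cell (74.6 to 312 FPKM summed in H+H+Cd testes, 47.8 to 374 FPKM in H+Cd testes), 3 of 3 adipocyte, 3 of 6 round spermatid, 3 of 6 spermatocyte and 3 of 8 Sertoli genes had the higher mean. No marker of these lists was at 0 in all libraries, and Cd163, Plin1 and Lep were not listed. Their part in the balance of mitochondrial to nuclear mRNA was not tested.

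Among nuclear genes of complex I, which oxidises NADH, 11 had the higher and 25 the lower mean in H+H+Cd testes, with a median log2 fold change of -0.11. Ndufs5, an accessory subunit on the intermembrane space side (chromosome 4 from 123712710 to 123718202, minus strand), had the smallest p of all members. It had 76.5, 78.3 and 71.3 FPKM in H+H+Cd testes, against 101, 105 and 119 FPKM in H+Cd testes, with every H+H+Cd library below every H+Cd library, and the log2 fold change was -0.52 ± 0.08 (SE, limma adjusted p = 0.223). Ndufa2, an accessory subunit of the matrix arm, had 32.2, 32.3 and 26.7 FPKM in H+H+Cd testes, against 40.1, 47.3 and 45.4 FPKM in H+Cd testes, likewise without overlap (log2 fold change -0.53 ± 0.10, limma adjusted p = 0.329). Ndufb5 of the membrane arm had 39.9, 63.2 and 54.4 FPKM in H+H+Cd testes, against 73.6, 86.5 and 93.8 FPKM in H+Cd testes, the lowest fold change of any member (log2 fold change -0.70 ± 0.18, limma adjusted p = 0.358). Ndufc2, also of the membrane arm, had 26.2, 23.4 and 23.5 FPKM in H+H+Cd testes, against 32.4, 28.8 and 33.6 FPKM in H+Cd testes (log2 fold change -0.36 ± 0.08, limma adjusted p = 0.338).

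Other complex I genes went the opposite way. Ndufb10, a membrane-arm subunit facing the intermembrane space (chromosome 17 from 24722060 to 24724478, minus strand), had the highest fold change of the members, with 42.3, 48.5 and 43.4 FPKM in H+H+Cd testes, against 20.6, 30.8 and 32.5 FPKM in H+Cd testes. The H+Cd libraries were all lower and H+Cd replicate 1 lowest, and the log2 fold change was 0.68 ± 0.17 (SE, limma adjusted p = 0.358). Ndufa3 had 44.7, 43.5 and 41.9 FPKM in H+H+Cd testes, against 34.0, 36.1 and 37.6 FPKM in H+Cd testes (log2 fold change 0.27 ± 0.06, limma adjusted p = 0.338). The most abundant nuclear subunit of complex I, Ndufa12, had 190.0, 179.8 and 153 FPKM in H+H+Cd testes, against 173, 185 and 217 FPKM in H+Cd testes, where the groups overlapped (log2 fold change -0.14 ± 0.12, limma adjusted p = 0.651). The remaining complex I subunits had log2 fold changes from -0.41 for Ndufv1, which binds NADH, to 0.50 for Ndufb4.

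In complex II, succinate dehydrogenase, the electron-transferring Sdhb had 41.6, 39.8 and 44.3 FPKM in H+H+Cd testes, against 49.8, 49.4 and 53.3 FPKM in H+Cd testes, with the groups apart (log2 fold change -0.27 ± 0.07, limma adjusted p = 0.338). Sdhc, a heme-binding membrane anchor, had 11.3, 11.6 and 12.4 FPKM in H+H+Cd testes, against 13.3, 15.7 and 15.0 FPKM in H+Cd testes, also apart (log2 fold change -0.29 ± 0.08, limma adjusted p = 0.358). The other membrane anchor, Sdhd, had a log2 fold change of -0.11 ± 0.08 (SE). Sdha, the flavoprotein that oxidises succinate and the most abundant of the 4, had 56.0, 57.8 and 48.9 FPKM in H+H+Cd testes, against 52.9, 52.8 and 54.1 FPKM in H+Cd testes, with overlap (log2 fold change 0.02 ± 0.08, limma adjusted p = 0.926), and the sign of its difference turned without H+H+Cd replicate 1 (-0.00) or replicate 2 (-0.02).

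In complex III, 7 of 9 nuclear subunits had the lower mean in H+H+Cd testes, with a median of -0.16. Uqcrq, a small subunit next to cytochrome b, had 128, 133 and 126 FPKM in H+H+Cd testes, against 138, 161 and 173 FPKM in H+Cd testes, without overlap (log2 fold change -0.28 ± 0.09, limma adjusted p = 0.374). The Rieske iron-sulfur protein Uqcrfs1 varied little within groups and had 46.7, 48.1 and 49.6 FPKM in H+H+Cd testes, against 53.8, 55.0 and 54.4 FPKM in H+Cd testes (log2 fold change -0.17 ± 0.05, limma adjusted p = 0.372). Uqcrb, the most abundant, had 139, 143 and 142 FPKM in H+H+Cd testes, against 135, 158 and 187 FPKM in H+Cd testes, with H+Cd replicate 1 below all H+H+Cd libraries (log2 fold change -0.16 ± 0.12, limma adjusted p = 0.594). Its log2 fold change was -0.28 without H+Cd replicate 1 and -0.05 without H+Cd replicate 3. Cyc1, the cytochrome c1 that hands electrons to cytochrome c, was among the exceptions: it had 9.53, 10.5 and 8.96 FPKM in H+H+Cd testes, against 8.43, 6.83 and 8.75 FPKM in H+Cd testes, all H+H+Cd libraries being higher (log2 fold change 0.25 ± 0.11, limma adjusted p = 0.446).

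In complex IV, cytochrome c oxidase, 6 nuclear subunits had the higher and 9 the lower mean, with a median of -0.02. Cox5a had 84.9, 87.8 and 87.6 FPKM in H+H+Cd testes, against 102, 110.4 and 102 FPKM in H+Cd testes, the clearest separation of this complex (log2 fold change -0.27 ± 0.06, limma adjusted p = 0.338). Ndufa4, named for complex I but known as a subunit of complex IV, had 14.1, 13.7 and 12.3 FPKM in H+H+Cd testes, against 9.44, 11.2 and 11.5 FPKM in H+Cd testes (log2 fold change 0.29 ± 0.10, limma adjusted p = 0.390). Cox6a1, the form of its subunit found outside muscle, had 74.7, 70.0 and 76.6 FPKM in H+H+Cd testes, against 77.6, 85.1 and 85.6 FPKM in H+Cd testes, all H+H+Cd libraries being lower (log2 fold change -0.16 ± 0.07, limma adjusted p = 0.415). Of the other subunits Cox4i1, Cox5b, Cox6c, Cox7a2 and Cox7c had log2 fold changes between -0.05 and 0.06. The muscle form Cox7a1 was low, at 1.27 to 1.90 FPKM in H+H+Cd testes and 1.49 to 1.80 FPKM in H+Cd testes, beside 106 to 135 FPKM and 121 to 132 FPKM for Cox7a2.

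In complex V, 4 nuclear subunits had the higher and 12 the lower mean, with a median of -0.13. Atp5k, the membrane subunit e (chromosome 5 from 108433244 to 108434448, minus strand), was the one of smallest p and had 68.4, 62.3 and 65.4 FPKM in H+H+Cd testes, against 52.0, 55.6 and 51.8 FPKM in H+Cd testes, all H+H+Cd libraries being higher (log2 fold change 0.29 ± 0.06, limma adjusted p = 0.338). Atp5e, the epsilon subunit of the rotor, had 25.8, 29.7 and 25.2 FPKM in H+H+Cd testes, against 32.6, 51.3 and 49.8 FPKM in H+Cd testes, on the lower side in H+H+Cd testes and with replicate 1 the lowest of the H+Cd libraries (log2 fold change -0.68 ± 0.18, limma adjusted p = 0.358). Atp5h, subunit d of the stalk and the most abundant, had 213, 163 and 209 FPKM in H+H+Cd testes, against 201, 287 and 304 FPKM in H+Cd testes, with H+Cd replicate 1 below 2 of the H+H+Cd libraries (log2 fold change -0.42 ± 0.18, limma adjusted p = 0.432). The catalytic beta subunit Atp5b had nearly equal means, 141 ± 5.19 FPKM in H+H+Cd testes and 144 ± 2.03 FPKM in H+Cd testes (SD, n = 3 each).

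**Figure D4:**
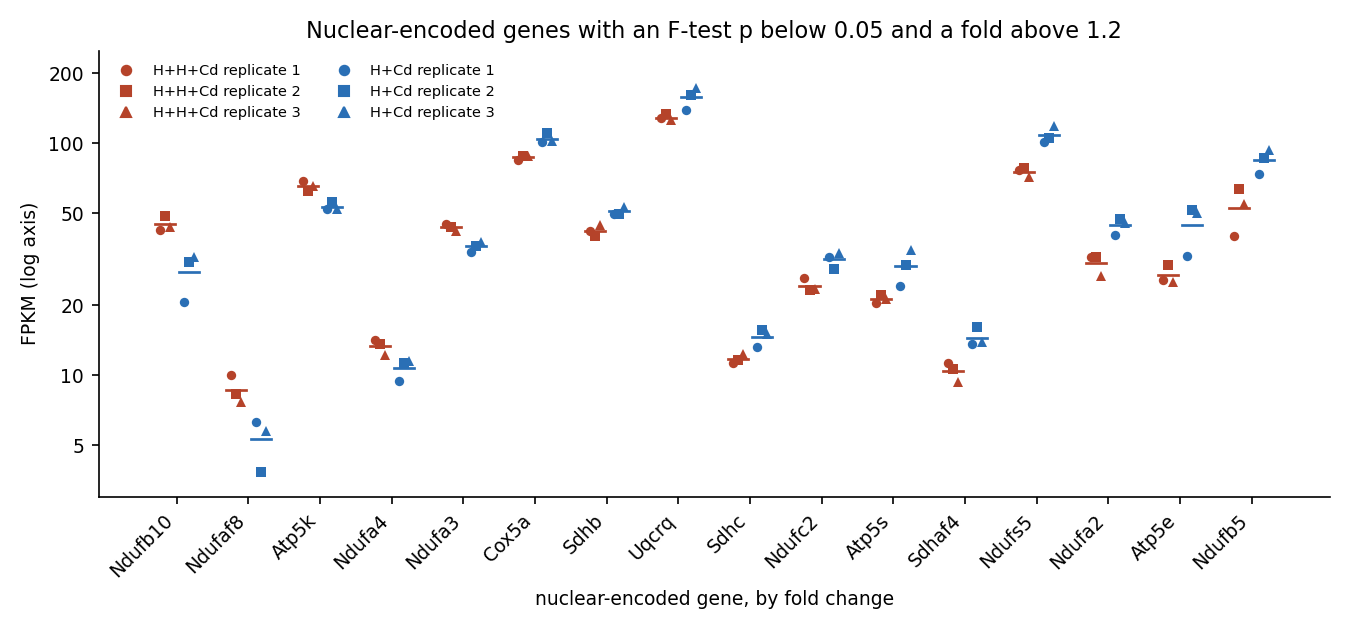
FPKM (log axis) of the 16 nuclear-encoded members past the study's thresholds, ordered by fold change, in 3 H+H+Cd libraries (red, left) and 3 H+Cd libraries (blue, right), with group means as bars. The first 5 genes are higher and the other 11 lower in H+H+Cd testes, and in none of them do the groups overlap.

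Of 12 assembly factors among the members, 4 had the higher and 8 the lower mean in H+H+Cd testes. Ndufaf8, which in human cells is needed to build complex I, had 10.0, 8.31 and 7.70 FPKM in H+H+Cd testes, against 6.28, 3.85 and 5.76 FPKM in H+Cd testes, all H+H+Cd libraries being higher (log2 fold change 0.63 ± 0.18, limma adjusted p = 0.358). Sdhaf4, which helps to mature the succinate dehydrogenase flavoprotein, had 11.3, 10.7 and 9.31 FPKM in H+H+Cd testes, against 13.6, 16.2 and 13.9 FPKM in H+Cd testes and lay on the other side (log2 fold change -0.44 ± 0.10, limma adjusted p = 0.338). Atp5s, a coupling factor of the ATP synthase counted here as accessory, had 20.5, 22.2 and 21.3 FPKM in H+H+Cd testes, against 24.3, 29.7 and 34.5 FPKM in H+Cd testes (log2 fold change -0.44 ± 0.13, limma adjusted p = 0.358).

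Some members varied too widely between libraries of a group for a difference to be read. Ndufa10 had 15.0, 5.50 and 15.9 FPKM in H+H+Cd testes, against 6.43, 7.003 and 15.4 FPKM in H+Cd testes, so that levels near 6 and near 15 FPKM occurred in both groups. Ndufa4l2 had 1.66, 6.45 and 2.56 FPKM in H+H+Cd testes, against 8.73, 7.55 and 1.62 FPKM in H+Cd testes. Atp5g1 and Atp5g2, which with Atp5g3 encode the same mature ring subunit, had 10.3 to 14.1 and 9.47 to 11.1 FPKM in H+H+Cd testes, against 8.61 to 20.7 and 6.45 to 12.98 FPKM in H+Cd testes. Across the 82 nuclear genes the fold change had little relation to the length of the main transcript (Spearman's rho -0.06, and -0.01 over all genes tested) or to the mean level (rho -0.16, and -0.10 over all genes tested). Genes share the same 6 libraries and are not independent replicates.

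The testis forms were far more abundant than their somatic counterparts in 3 of 4 pairs. Cyct, the testis cytochrome c, averaged 7.13 times the somatic Cycs over the 6 libraries (6.53 to 7.93 times). Cox7b2 averaged 35.6 times Cox7b (26.5 to 44.6 times), and Cox8c 30.9 times Cox8a (18.0 to 55.9 times). Cox6b2 averaged 1.85 times Cox6b1 (1.53 to 2.996 times).

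The log2 ratio of testis to somatic form, on FPKM + 1, was compared between the groups for these 4 pairs with a two-sided exact permutation test, whose smallest possible p is 0.1. For Cox8c over Cox8a the log2 ratio was 4.32, 4.52 and 4.10 in H+H+Cd testes, against 4.55, 5.25 and 5.69 in H+Cd testes, a difference of -0.85 (exact permutation p = 0.1, 0.2 adjusted over the 4 pairs). Behind it, Cox8c had 346, 381 and 324 FPKM in H+H+Cd testes, against 374, 554 and 640.3 FPKM in H+Cd testes, with H+Cd replicate 1 below H+H+Cd replicate 2 (log2 fold change -0.54 ± 0.20, limma adjusted p = 0.391). H+Cd replicate 1 was also the library with the lowest elongating spermatid sum (12349 FPKM), whose part in the level of Cox8c was not tested. The somatic Cox8a had 16.4, 15.7 and 18.0 FPKM in H+H+Cd testes, against 15.0, 13.5 and 11.4 FPKM in H+Cd testes, without overlap and in the opposite direction (log2 fold change 0.31 ± 0.11, limma adjusted p = 0.390).

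For Cox7b2 over Cox7b the log2 ratio was 4.53, 4.88 and 4.78 in H+H+Cd testes, against 4.88, 5.18 and 5.06 in H+Cd testes, a difference of -0.31 (exact permutation p = 0.1, 0.2 adjusted). Cox7b2 had 177, 175 and 181 FPKM in H+H+Cd testes, against 181, 188 and 185 FPKM in H+Cd testes, groups that were apart by little (log2 fold change -0.06 ± 0.05, limma adjusted p = 0.646). Cox7b had 6.70, 5.01 and 5.63 FPKM in H+H+Cd testes, against 5.19, 4.22 and 4.57 FPKM in H+Cd testes, with overlap (log2 fold change 0.26 ± 0.12, limma adjusted p = 0.463). For Cyct over Cycs the difference was -0.03 (exact permutation p = 0.7, 0.7 adjusted), and its sign turned without H+H+Cd replicate 3 (0.02) or H+Cd replicate 3 (0.04). Cyct had 162, 161 and 153 FPKM in H+H+Cd testes, against 147, 168 and 172 FPKM in H+Cd testes, a log2 fold change of -0.03 with a limma 95% confidence interval from -0.21 to 0.15. Cycs had 23.4, 20.9 and 23.4 FPKM in H+H+Cd testes, against 21.9, 24.1 and 21.6 FPKM in H+Cd testes, a log2 fold change of -0.00 with an interval from -0.19 to 0.19.

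For Cox6b2 over Cox6b1 the difference in log2 ratio was -0.30 (exact permutation p = 0.5, 0.667 adjusted), and it rested on 1 library. The log2 ratio was 0.61, 0.71 and 0.72 in H+H+Cd testes, against 0.60, 1.55 and 0.79 in H+Cd testes. Cox6b1 had 63.5, 56.0 and 60.4 FPKM in H+H+Cd testes, against 64.1, 28.3 and 56.9 FPKM in H+Cd testes, so that H+Cd replicate 2 was far below the rest, while Cox6b2 had 97.1, 92.1 and 100.3 FPKM in H+H+Cd testes, against 97.9, 84.7 and 99.2 FPKM in H+Cd testes. Without H+Cd replicate 2 the difference in log2 ratio was -0.02, and the log2 fold change of Cox6b1 was -0.01 in place of 0.34 and that of Cox6b2 -0.03 in place of 0.04.

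**Figure D5:**
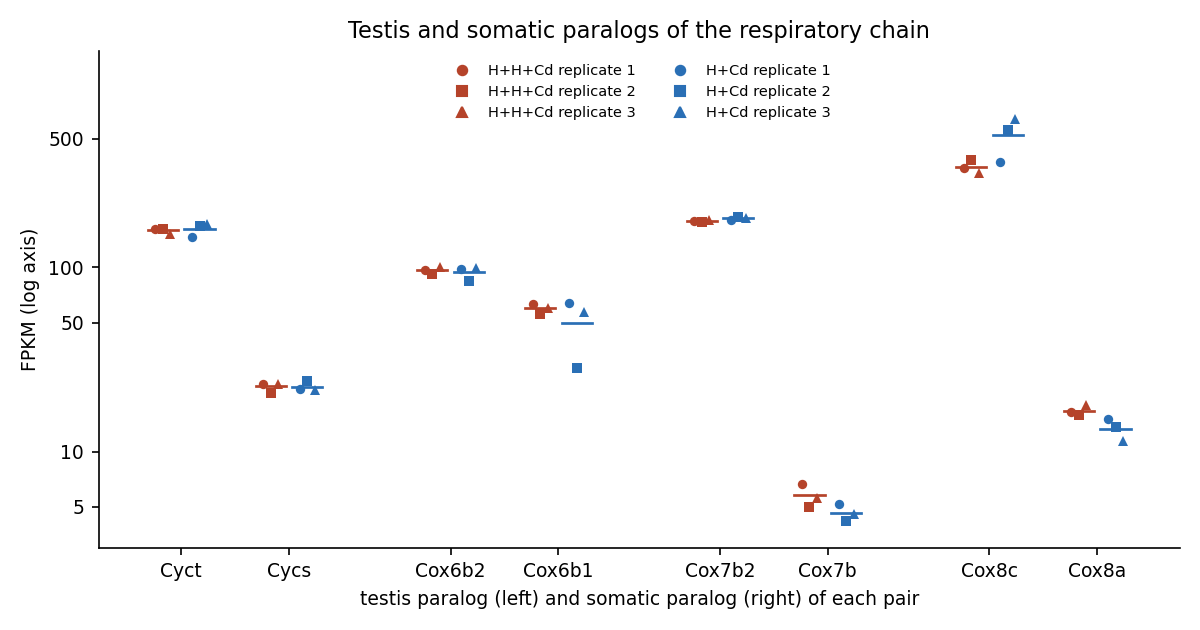
FPKM (log axis) of the testis form (left) and somatic form (right) of 4 subunit pairs in 3 H+H+Cd libraries (red, left) and 3 H+Cd libraries (blue, right), with group means as bars. Cyct, Cox7b2 and Cox8c lie far above their somatic partners, and Cox8a is the single somatic form of the 4 whose groups do not overlap.

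Many respiratory genes are known to carry sites for the factors NRF1, GABP, CREB and YY1 near their start. RefSeq promoter windows of 300 bases around the start (GRCm38.p6) were found for 68 of the 82 nuclear genes, with 73 windows in all, and searched on both strands. The NRF1 motif, GCGCA and GCGC with any 1 base between them, was in 18 of the 73 windows (24.7%), against 4.603% of 32851 promoter windows of all genes. The CRE motif TGACGTCA, bound by CREB, was in 5 (6.85%, against 1.79%), the GABP motif CCGGAAGT in 5 (6.85%, against 3.89%) and the YY1 motif, AAGATGG followed directly by CGGC, in 4 (5.48%, against 0.633%). None of these motifs contains another, and a match in letters is a description, not a bound site.

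The 17 genes with the NRF1 motif had a median log2 fold change of -0.11, 11 of them with the lower mean in H+H+Cd testes, and the 51 without it had a median of -0.07, 36 of them with the lower mean. Members with the motif stood at both ends, as Ndufs5 (-0.52) and Atp5k (0.29) show. Parts of their promoters are printed with the NRF1 motif in capitals, beside that of Cycs with its CRE in capitals and those of the testis forms Cyct and Cox7b2, whose windows held none of the 4 motifs. All are on the minus strand of mm10 and written 5′ to 3′ along the gene.
Ndufs5, chr4:123718250-123718309: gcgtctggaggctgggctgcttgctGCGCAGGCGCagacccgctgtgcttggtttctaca
Atp5k, chr5:108434415-108434474: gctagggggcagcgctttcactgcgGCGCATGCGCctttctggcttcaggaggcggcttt
Cycs, chr6:50566705-50566764: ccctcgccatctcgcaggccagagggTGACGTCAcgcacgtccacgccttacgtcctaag
Cyct, chr2:76360444-76360503: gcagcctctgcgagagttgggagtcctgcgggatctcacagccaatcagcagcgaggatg
Cox7b2, chr5:71548196-71548255: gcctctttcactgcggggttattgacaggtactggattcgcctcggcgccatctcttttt

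At the level of single transcripts, the members had 193 listed transcripts, 67 genes with 1 and 43 with several. Of 182 tested, 0 passed the adjusted limma threshold (0.13% of all 25322 transcripts did), the smallest adjusted p was 0.363, and 39 had an unadjusted p below 0.05, beside 8.24% of all transcripts tested. Some gene sums joined transcripts that differed in opposite directions, as for Uqcrq and Atp5s, where transcripts on both sides had an unadjusted p below 0.05. The Atp5s transcript on the higher side, ENSMUST00000220539.1, was near the floor. It had 0.527, 1.40 and 0.712 FPKM in H+H+Cd testes, against 0.232, 0 and 0 FPKM in H+Cd testes. Its share of the gene was 4.12% in H+H+Cd testes and 0.26% in H+Cd testes, against 72.7% and 80.9% for ENSMUST00000021372.5, which was lower. The following transcripts were chosen after their values were seen. For Atp5c1, the gamma shaft of the ATP synthase, ENSMUST00000139810.7 had 26.4, 9.09 and 6.58 FPKM in H+H+Cd testes, against 34.9, 32.0 and 61.1 FPKM in H+Cd testes, a log2 fold change of -1.71 (limma adjusted p = 0.572). For Ndufs7, an iron-sulfur subunit of complex I, ENSMUST00000020361.6 had 2.76, 3.99 and 3.60 FPKM in H+H+Cd testes, against 10.0, 10.8 and 5.91 FPKM in H+Cd testes, a log2 fold change of -1.13 (limma adjusted p = 0.409). In both the groups did not overlap, while the gene sums of Atp5c1 and Ndufs7 did. With the most abundant transcript of each gene in place of the sum, the median of the 82 nuclear genes was -0.06.

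Genes around the respiratory chain were read from lists of the pathway, and 0 of their members passed. Of 28 genes that transcribe, process or replicate the mitochondrial genome, 9 had the higher and 19 the lower mean in H+H+Cd testes, with a median of -0.06. Lrpprc, which stabilises mitochondrial mRNAs, had 12.9, 12.5 and 11.6 FPKM in H+H+Cd testes, against 14.7, 16.5 and 15.4 FPKM in H+Cd testes, all H+H+Cd libraries being lower (log2 fold change -0.31 ± 0.08, limma adjusted p = 0.338). Tfam, which packs and transcribes mitochondrial DNA and is highly expressed in testis, had 153, 122 and 116 FPKM in H+H+Cd testes, against 144, 139.7 and 112 FPKM in H+Cd testes, with overlap (log2 fold change -0.01 ± 0.14, limma adjusted p = 0.976). Mterf3, of the mitochondrial transcription termination factor family, had 20.3, 20.2 and 24.5 FPKM in H+H+Cd testes, against 19.7, 17.5 and 18.0 FPKM in H+Cd testes (log2 fold change 0.22 ± 0.10, limma adjusted p = 0.437). Tbrg4, of the FASTK family of mitochondrial RNA-binding proteins, varied widely, with 5.16, 1.93 and 3.30 FPKM in H+H+Cd testes, against 3.61, 11.6 and 7.63 FPKM in H+Cd testes (log2 fold change -0.90 ± 0.43, limma adjusted p = 0.456). Of 7 nuclear regulators listed 2 had the higher and 5 the lower mean, with log2 fold changes of -0.16 to 0.18. Gabpb1, a GABP subunit, averaged 17.6 ± 0.775 FPKM in H+H+Cd testes and 18.2 ± 3.51 FPKM in H+Cd testes. The log2 fold changes of Esrra, a nuclear receptor, Pprc1, a coactivator, and Yy1 were 0.18, 0.17 and -0.06.

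Among 33 assembly factors outside the member rule, 17 had the higher and 16 the lower mean (median 0.03). Cox17, the copper chaperone of complex IV, had 62.1, 66.0 and 63.8 FPKM in H+H+Cd testes, against 71.9, 86.8 and 79.8 FPKM in H+Cd testes, all H+H+Cd libraries being lower (log2 fold change -0.31 ± 0.08, limma adjusted p = 0.358). Atpaf2, which assembles the ATP synthase, had a log2 fold change of -0.38, Coa4 one of 0.41, and the complex III factor Uqcc2, the most abundant, one of -0.05. Mitochondrial ribosomal proteins, which make the 13 mitochondrial proteins, had 29 higher and 48 lower means of 77 tested (median -0.06). The members of smallest p were Mrpl33, Mrpl10 and Mrpl36 with log2 fold changes of -0.40, -0.30 and -0.26, and Mrpl54, the most abundant, had one of -0.11. Import factors of the TIM and TOM complexes had 8 higher and 18 lower means of 26 (median -0.06). Tomm22, the import receptor, had 118, 123 and 116 FPKM in H+H+Cd testes, against 135, 149 and 153 FPKM in H+Cd testes, without overlap (log2 fold change -0.29 ± 0.07, limma adjusted p = 0.338). Timm50, Tomm70a and the abundant Timm8b had log2 fold changes of -0.33, -0.15 and -0.05.

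The citric acid cycle, which feeds the chain with NADH and succinate, had 6 higher and 7 lower means of 13 (median -0.05). Its dehydrogenase subunit Dld had 65.1, 63.3 and 64.5 FPKM in H+H+Cd testes, against 70.5, 74.4 and 73.3 FPKM in H+Cd testes, without overlap (log2 fold change -0.18 ± 0.05, limma adjusted p = 0.358). Suclg1, Cs and Sucla2, the most abundant, had log2 fold changes of -0.10, -0.14 and -0.12. Of 4 carriers that exchange adenine nucleotides and phosphate, 1 had the higher and 3 the lower mean (median -0.09). Slc25a31, the germ cell form of the adenine nucleotide carrier, had 22.0, 24.5 and 21.3 FPKM in H+H+Cd testes, against 28.2, 25.1 and 26.7 FPKM in H+Cd testes, all H+H+Cd libraries being lower (log2 fold change -0.23 ± 0.08, limma adjusted p = 0.390). Its somatic relative Slc25a5 had a log2 fold change of 0.14, and the phosphate carrier Slc25a3, the most abundant, one of -0.15.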

How the data were processed

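The authors selected poly(A) RNA, made stranded libraries for a NovaSeq instrument, matched the reads to known transcripts with StringTie and computed abundance per gene and per transcript with Ballgown. The deposited values are FPKM per transcript in 6 libraries, and the submitters' notes name the build mm10. The aligner and the versions used are not stated in the sources at hand. Counts were not analysed here, so the read depth of a library is unknown and no interval for counting error is given.

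Of 27120 transcripts, 27018 (99.6%) were matched to GENCODE M21 without version number. FPKM was summed per gene, taken as log2(FPKM + 1), filtered at a mean above 0.5 in at least 1 group and tested with limma 3.58.1 in R 4.3.3 (variance trend, two-sided, group as the single factor) with Benjamini-Hochberg adjustment over all genes at 0.05. Standard errors and intervals of fold changes came from limma. Folds on FPKM + 1 understate differences of low genes. The study's thresholds, an F-test p below 0.05 and a fold above 1.2, were applied as a second rule, without adjustment. Ratios of paralogs were compared by exact permutation. The fits were tested on simulated data. Tables were made with pandas 2.3.3 in Python 3.11.15.

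Named genes were all mitochondrial mRNAs, cytochromes c and c1, the paralog pairs, the most abundant and the 2 of smallest p in each complex, members past the study's thresholds without overlap, and of each other list the 3 of smallest p and the most abundant. Ndufa10, Ndufa4l2, Atp5b, Atp5g1, Atp5g2, Cox6a1, Cox7a1, Cox7a2 and the further genes given by a fold change alone were added after their values were seen. The members and lists were chosen with earlier results of these data known. Alternatives were another pseudocount, other filters, 3 rescalings, limma without trend, the adjusted F-test, a replicate block, the most abundant transcript, and leaving out each library. Promoters are RefSeq's (GRCm38.p6).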

Additional observations from a re-analysis of the deposited data

How the results depend on the processing

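No member passed an adjusted p of 0.05 under any of the 16 alternatives. Of the 43 members named by rule, 38 kept the sign of their fold change in all of them. Members added after their values were seen are not among the 43. With 1 library left out in turn, the median log2 fold change ran from 0.21 to 0.43 for the mitochondrial mRNAs, from -0.11 to -0.0701 for the nuclear genes and from 0.30 to 0.52 for their difference, and was -0.0645 for the nuclear genes with the most abundant transcript. At the study's thresholds leaving out a library gave 0 to 9 members higher and 5 to 16 lower, beside 1.47% to 4.45% and 1.62% to 3.86% of all genes. The log2 ratio difference ran from -0.0925 to 0.0404 for Cyct over Cycs, and was 0.0248 without H+H+Cd replicate 3. Quantile normalization gave a mitochondrial median of 0.27. At an unadjusted p below 0.05 the F-test had 7 members higher and 18 lower (4.16% and 6.75% of all genes).

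The sign of Cycs turned with median-ratio rescaling (0.00696), rescaling without the mitochondrial mRNAs (0.0121), quantile normalization (0.0180) and without H+H+Cd replicate 2 (0.0512) or H+Cd replicate 2 (0.0469), and ran from -0.0279 to 0.0512 over the libraries left out. Over the same fits Cyct ran from -0.0981 to 0.0125, Cox6b1 from -0.0121 to 0.565, Cox6b2 from -0.0309 to 0.0819 and Sdha from -0.0250 to 0.0928. The cause of these turns was not tested.

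Same-numbered libraries did not deviate together (correlations of -0.08, -0.00 and -0.16). With 3 libraries per group these correlations show no pairing by replicate number but cannot exclude one. The main test did not pair the libraries. With the replicate number as a block, 0 members passed, 1 was higher and 7 lower at the study's thresholds (1.41% and 1.43% of all genes), and 6 and 13 had an unadjusted limma p below 0.05 on the higher and lower side (3.78% and 3.75% of all genes).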
